A study of Mus musculus with 12 samples.

Results

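The genes described here are 47 class I odorant receptor genes on mouse chromosome 7, the intact receptor genes numbered Olfr572 to Olfr630 together with Olfr67, Olfr68 and Olfr69. The rule uses the symbols alone, and symbols carrying the pseudogene suffix were left out; that these genes would be described was decided with earlier results of these data known. All 47 genes that the annotation names under this rule were among the 39395 genes listed, which include 1266 odorant receptor genes and 145 of class I. These totals for receptor and class I genes include symbols with the pseudogene suffix. In GRCm38 they are annotated as protein-coding, lie within 867 kb (chr7:102924409-103791821) and are divided between the plus strand (22 genes) and the minus strand (25 genes). The labels give the deleted interval as chr7:102509797-102918014, so the nearest of the receptor genes, Olfr572, begins 6.40 kb beyond its end and the farthest, Olfr67, begins 867 kb beyond it. Olfr243 lies inside the same stretch of chromosome but carries a number outside the range and was not counted among them.

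The series measured RNA of the olfactory mucosa, the nasal lining in which odours are sensed, in 12 male mice at postnatal day 30 on a mixed 129S6;C57BL/6J background. Each animal gave 1 library: 6 wild-type animals and 6 animals labelled as carrying a large deletion of 408217 bp, which the series title describes as an enhancer deletion. Both groups share strain, age and sex. The labels do not state whether the deletion was on one or both chromosomes; all listed genes inside it, 25 of them class I, together had 1522 to 2000 reads in each wild-type library and 0 or 1 in each deletion library. Chromosome 7 sequence inherited together with the deletion on the mixed background cannot be told apart from the deletion itself.

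Each olfactory sensory neuron chooses a single odorant receptor gene and transcribes it at a high level while the others stay silent, so in whole tissue the level of a receptor gene reflects both how many neurons chose it and how much RNA each of them makes. These bulk libraries cannot tell fewer cells from less RNA per cell. Class I receptors, the family shared with fish, are encoded in a single cluster on chromosome 7 and are expressed mainly by neurons of the dorsal epithelium. Class II receptors are encoded in many clusters on other chromosomes and also on this one. Choice is known to depend on enhancers, in which the LIM-homeodomain factor LHX2 and EBF factors bind.

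Levels are given as normalised read counts, which are reads divided by the size factor of the library. Recovered reads per library numbered 13942401 to 18044908 in wild-type and 10091239 to 18612011 in deletion animals. The library of deletion animal 3 was the shallowest and stood apart from the others, with 94.6% of all listed genes detected. Wild-type libraries had 65.2% to 69.3%. Deletion animals 2, 4 and 5 were also above that range, at 80.6%, 73.1% and 75.6%. In 96 genes of families with little or no transcription in this tissue (defensins, keratin-associated proteins, bitter taste receptors) deletion animal 3 had 3.44 reads per kb of exon. The wild-type libraries had 0.533 to 0.793. Deletion animals 2 and 5 had 1.23 and 1.02, and deletion animals 1, 4 and 6 had 0.496 to 0.719. In the library of deletion animal 3, 11 of the 47 receptor genes were at or below its rate of 3.44 per kb, 8 of which passed the filter on low counts. Levels of single genes without that library are therefore given where they differ by more than 1.5 times. Leaving it out does not take away the raised rates of deletion animals 2 and 5. The part of these libraries in each result was not tested beyond these values.

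Receptor genes of this cluster include near-identical copies. Olfr582 and Olfr584, whose coding sequences share 96.3% of their bases, are shown because their levels fell to very different degrees. The lines give the first 150 coding bases of each on the plus strand, at chr7:103041481-103041630 and chr7:103085520-103085669 of GRCm38, from GENCODE transcripts, and capitals mark the 3 bases at which they differ.
Olfr582: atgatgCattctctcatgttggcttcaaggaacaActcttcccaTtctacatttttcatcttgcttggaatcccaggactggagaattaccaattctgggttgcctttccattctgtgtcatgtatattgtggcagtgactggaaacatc
Olfr584: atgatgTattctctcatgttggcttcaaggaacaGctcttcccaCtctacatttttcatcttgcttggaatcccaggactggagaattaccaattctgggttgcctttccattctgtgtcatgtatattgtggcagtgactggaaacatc

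The 3 genes Olfr630, Olfr69 and Olfr67 lie at the far end of the stretch, towards the beta-globin genes, with Olfr68 between Olfr69 and Olfr67. Their start regions are shown because all 3 were called lower and because they were the only ones for which the RefSeq start window (GRCm38.p6; 250 bases before and 50 after the start) fell within 50 bases of the GENCODE start without beginning at the start codon. Of the 47 genes 43 had a window, and in 33 it was placed at the ATG, which says nothing of the promoter. All 3 windows are on the minus strand (chr7:103757301-103757600, chr7:103771545-103771844 and chr7:103791781-103792080), and capitals mark the homeodomain motif TAATTG where either strand holds it.
Olfr630: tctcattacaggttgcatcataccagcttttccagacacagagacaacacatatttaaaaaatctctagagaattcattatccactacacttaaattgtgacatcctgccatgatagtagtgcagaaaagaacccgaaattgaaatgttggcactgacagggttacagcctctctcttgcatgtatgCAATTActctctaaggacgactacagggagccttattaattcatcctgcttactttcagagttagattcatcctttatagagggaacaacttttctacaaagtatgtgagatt
Olfr69: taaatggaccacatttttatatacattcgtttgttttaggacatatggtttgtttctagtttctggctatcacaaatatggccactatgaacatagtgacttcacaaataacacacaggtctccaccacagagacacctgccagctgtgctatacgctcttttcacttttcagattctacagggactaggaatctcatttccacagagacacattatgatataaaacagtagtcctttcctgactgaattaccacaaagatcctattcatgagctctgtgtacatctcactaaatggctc
Olfr67: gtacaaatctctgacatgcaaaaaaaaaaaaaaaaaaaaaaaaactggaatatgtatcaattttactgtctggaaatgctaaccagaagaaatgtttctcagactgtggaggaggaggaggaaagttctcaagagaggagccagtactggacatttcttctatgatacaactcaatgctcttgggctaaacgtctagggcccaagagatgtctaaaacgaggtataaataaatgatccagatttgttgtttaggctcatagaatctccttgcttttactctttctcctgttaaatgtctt
Searched on both strands, TAATTG was in 1 of the 3 windows and in 8.0% of all 32851 RefSeq windows of this length. TAATTA was in 0 of the 3 and in 5.29% of all windows. The EBF motif TCCCNNGGGA was in 0 of the 3 and in 0.904% of all windows. Either homeodomain motif was in 1 of the 3 windows and in 12.4% of all windows; their matches may share bases at their ends. A match describes letters only.

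The RNA of these receptor genes was lower in deletion animals as a group and for nearly every gene. Their summed level was 3617 ± 416 normalised counts (SD, n = 6) in wild-type animals, and 867 ± 263 (SD, n = 6) with the deletion, so 24.0% of the wild-type sum remained. Without deletion animal 3 the deletion sum was 769.5 ± 124 (SD, n = 5). Of 40 genes that passed the filter, 36 were lower and 0 higher in deletion animals at an adjusted p under 0.05 (limma, Benjamini-Hochberg over 17320 genes). The filter is part of this count: a gene with reads in wild-type animals alone could pass it, as Olfr582 did with 469 reads in the wild-type and 9 in the deletion libraries, while Olfr574, with 1 and 10 reads, did not. Without the filter limma called 37 of all 47 genes lower and 0 higher, against 88 lower and 16 higher of all 39395 genes. Across all genes tested, 0.445% were called lower and 0.052% higher. The edgeR quasi-likelihood test and DESeq2 on the recovered reads each called 36 lower and 0 higher. At an unadjusted p under 0.05 the limma counts were 38 lower and 0 higher, and the share of all genes at that threshold is not given here. According to the authors' deposited table, of the 47 genes 36 were lower and 0 higher at an adjusted p under 0.05, against 0.216% of all genes lower and 0.0381% higher, and 35 genes were called both there and by limma. Olfr603 was called only in the deposited table and Olfr607 only by limma.

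The genes lost very unequal parts of their RNA. The median log2 fold change of the 40 genes was -2.24, against -0.01 over all genes tested, and the values ran from -5.28 for Olfr582 to -0.23 for Olfr594. Expressed as the part of the wild-type mean that remained, the median was 21.9%, and 16.7% without deletion animal 3. Under 10% remained of 9 genes, or of 13 without that animal, 10% to 25% of 15 genes, 25% to 50% of 13, and 50% or more of 3. For 34 of the 40 genes every deletion animal was below every wild-type animal, and for 36 without deletion animal 3. With all animals, the share of all tested genes with such a separation was 0.497%. That share was not computed without deletion animal 3, so the 36 has no matching value beside it.

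**Figure D1:**
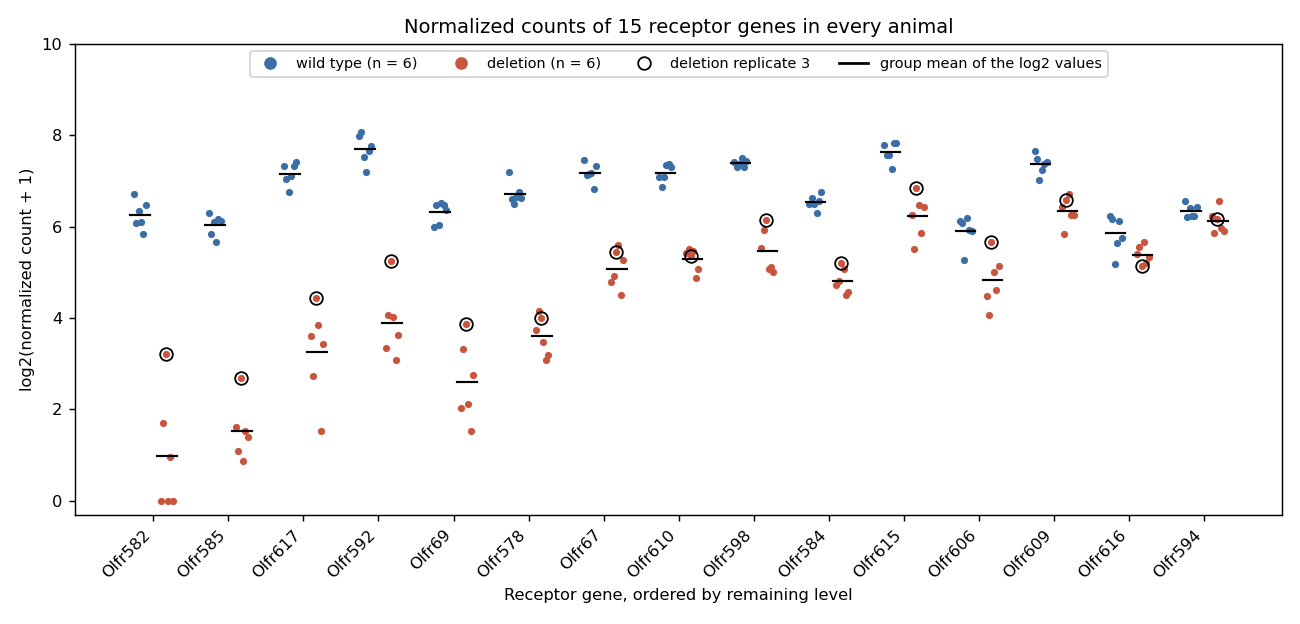
Level of 15 receptor genes in each animal as log2(normalised count + 1), from the gene that kept least of its level (left) to the one that kept most (right); points are animals (6 per group), bars the group means, and rings deletion animal 3. The groups overlap in Olfr606, Olfr616 and Olfr594 and stand apart in the other 12 genes.

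The genes with the highest levels per kb of exon in wild-type tissue were Olfr610, Olfr598, Olfr585, Olfr615, Olfr609 and Olfr617, at 88.5 to 46.0 normalised counts per kb. Olfr610 ranged from 115 to 166 normalised counts in wild-type animals (median 146) and from 28.2 to 44.9 in deletion animals (median 40.9). Its log2 fold change was -1.90 ± 0.14 (SE; limma adjusted p = 4.23e-08), and 26.4% ± 2.35 (SE) of the wild-type level remained. All 6 deletion animals were well below the lowest wild-type animal.

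Olfr598 was the steadiest of these genes in wild-type tissue, from 156 to 180.4 normalised counts (median 168), and in deletion animals it ran from 31.0 to 70.0 (median 39.5). Its log2 fold change was -1.92 ± 0.18 (SE; limma adjusted p = 9.62e-07), without overlap between the groups. Olfr615 ranged from 154 to 229 (median 204) in wild-type and from 44.9 to 114 (median 80.8) in deletion animals, a log2 fold change of -1.41 ± 0.18 (SE; limma adjusted p = 0.000161). For Olfr615, too, the groups stayed apart, and 38.6% of its RNA remained. Genes of like wild-type level thus kept different amounts of RNA, and over the 40 genes the wild-type level per kb and the log2 fold change had a rank correlation of 0.04 (Spearman, n = 40 genes of the same libraries, given as a description).

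The deepest losses by level were those of Olfr582, Olfr585, Olfr577, Olfr608, Olfr617, Olfr592, Olfr69, Olfr591 and Olfr618, the 9 genes of which less than 10% remained. Olfr582 ranged from 55.9 to 104 normalised counts in wild-type animals (median 73.6) and from 0 to 8.24 in deletion animals (median 0.470). Together the deletion libraries held 9 reads of it and the wild-type libraries 469, and its log2 fold change was -5.28 ± 0.46 (SE; limma adjusted p = 9.62e-07). Deletion animal 3 held the highest deletion value, so 2.48% of the wild-type mean remained with it and 0.83% without it.

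Olfr585, a short gene of 1030 exon bases, ranged from 50.04 to 77.4 normalised counts in wild-type animals (median 68.04) and from 0.843 to 5.49 in deletion animals (median 1.76). It had the smallest p of all 40 genes, with a log2 fold change of -4.502 ± 0.28 (SE; limma adjusted p = 3.99e-09). Olfr617 ranged from 107 to 169.5 normalised counts in wild-type animals (median 148) and from 1.88 to 20.6 in deletion animals (median 10.5). Both genes had a high wild-type level per kb and nearly lost their RNA, while Olfr610 and Olfr598 kept more than the median gene did.

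Among the genes with the smallest p were also Olfr578, Olfr629, Olfr67 and Olfr592. Olfr592 contributed most to the wild-type sum, ranging from 145 to 269 normalised counts (median 209), and fell to between 7.52 and 37.1 (median 13.3). Its log2 fold change was -3.80 ± 0.29 (SE; limma adjusted p = 4.24e-07). Olfr578 ranged from 89.1 to 145 normalised counts in wild-type animals (median 99.1) and from 7.52 to 16.8 in deletion animals (median 11.2), with a log2 fold change of -3.12 ± 0.20 (SE; limma adjusted p = 5.45e-09). Olfr629 ranged from 51.6 to 94.3 normalised counts in wild-type animals (median 77.5) and from 4.70 to 13.5 in deletion animals (median 7.47), with a log2 fold change of -3.11 ± 0.23 (SE; limma adjusted p = 6.45e-08). In each of these genes the highest deletion animal was below the lowest wild-type animal.

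**Figure D2:**
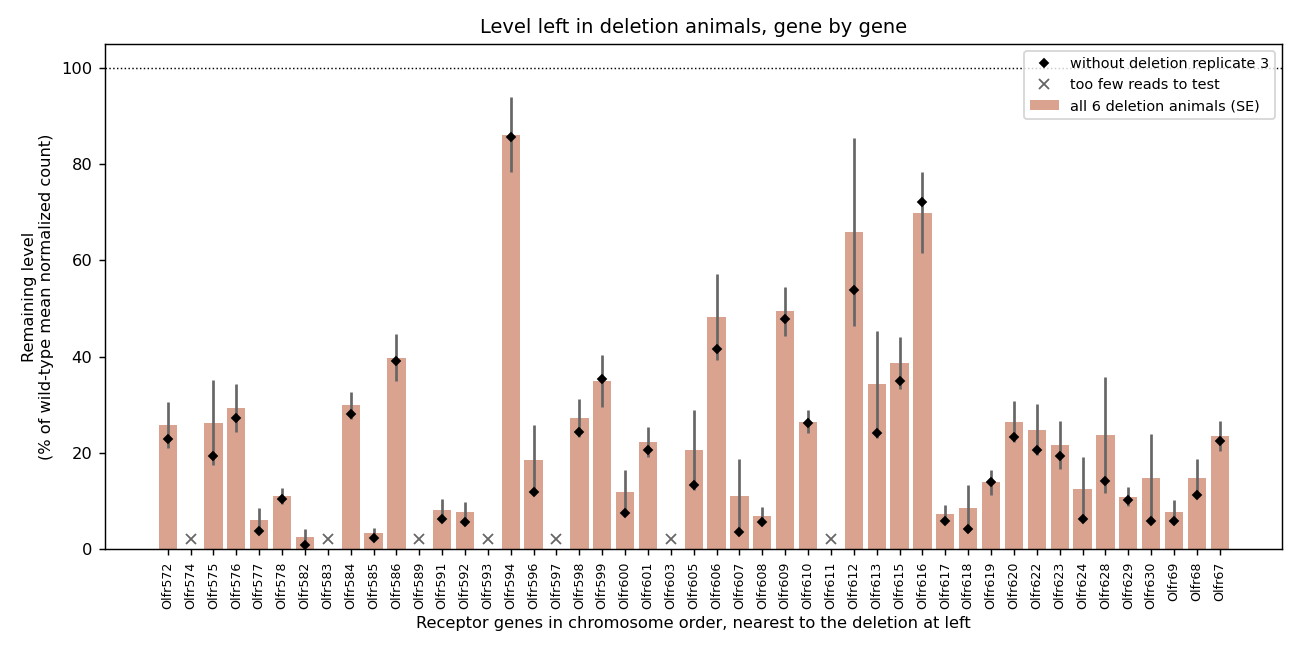
Percent of the wild-type mean normalised count that remained in deletion animals for each receptor gene in chromosomal order, as bars with standard errors (6 animals per group). Diamonds give the value without deletion animal 3, crosses mark the 7 genes with too few reads, and the dotted line is the wild-type mean. Values run from 2.48% for Olfr582 to 86.1% for Olfr594, with neighbours often far apart.

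The smallest changes among the genes called lower were those of Olfr609, Olfr606, Olfr586, Olfr615, Olfr599 and Olfr613. Olfr609 ranged from 128 to 199.9 normalised counts in wild-type animals (median 167) and from 56.1 to 104 in deletion animals (median 80.1). Its log2 fold change was -1.02 ± 0.14 (SE; limma adjusted p = 0.00029), and the groups did not overlap even though 49.4% of its RNA remained. Olfr606 had a similar log2 fold change of -1.09 ± 0.23 (SE; limma adjusted p = 0.0397), but its groups overlapped, with 37.5 to 72.2 normalised counts in wild-type animals (median 63.1) and 15.7 to 49.4 in deletion animals (median 27.3). The call on Olfr606 was lost in 11 alternatives, 9 of them without 1 of the wild-type animals 1, 2, 4, 5 and 6 or the deletion animals 1, 2, 4 and 5, with adjusted p from 0.0637 to 0.230.

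The calls on Olfr607, Olfr613 and Olfr605 were sensitive to single libraries. Olfr607 ranged from 53.5 to 109 normalised counts in wild-type animals (median 75.5); in deletion animals it was 38.5 in animal 3 and 0 to 6.58 in the others. In the authors' deposited table Olfr607 is not called (adjusted p = 0.988). With all animals 11.01% of its RNA remained and without animal 3 it was 3.55%. Leaving out any of 10 other libraries took its limma adjusted p past the threshold, and over all 13 alternatives that did so it was 0.0537 to 0.140. Olfr613 ranged from 29.5 to 54.4 normalised counts in wild-type animals (median 37.2) and from 3.37 to 33.0 in deletion animals (median 10.9), again with animal 3 highest. Its call was lost without wild-type animal 1, 3, 4 or 5 or deletion animal 5 or 6 (limma adjusted p from 0.0521 to 0.0726), and that on Olfr605 without wild-type animal 3 (0.0559). Olfr605 kept 20.6% of its level with all animals and 13.2% without deletion animal 3.

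The 4 tested genes that were not called were Olfr594, Olfr616, Olfr612 and Olfr628, which are described here because of their values. Olfr594 ranged from 72.8 to 94.2 normalised counts in wild-type animals (median 79.0) and from 57.2 to 93.5 in deletion animals (median 66.7). Its log2 fold change was -0.23 ± 0.13 (SE; limma adjusted p = 0.955), and the 2 groups overlapped over much of their range. Olfr616 ranged from 35.6 to 74.3 normalised counts in wild-type animals (median 60.8) and from 34.3 to 49.7 in deletion animals (median 40.1), with a log2 fold change of -0.47 ± 0.18 (SE; limma adjusted p = 0.955). Olfr612 ranged from 9.31 to 33.1 normalised counts in wild-type animals (median 21.8) and from 4.90 to 27.5 in deletion animals (median 11.1). Under every alternative in which they were tested Olfr594, Olfr616 and Olfr612 stayed below the wild-type mean and uncalled. The last, Olfr628, was a low-count gene with 93 reads in all wild-type and 21 in all deletion libraries; its log2 fold change was -2.22 ± 0.57 (SE; limma adjusted p = 0.205), and it was called without deletion animal 3 or with a replicate block (0.0280 to 0.0438). It kept 23.6% of its level, and 14.2% without deletion animal 3.

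Genes in the middle of the range, of which 10% to 50% remained, make up the larger part of the set (28 of the 40). Olfr623, the fourth most abundant gene of the set in wild-type tissue, ranged from 135 to 234 normalised counts in wild-type animals (median 173) and from 16.9 to 67.4 in deletion animals (median 32.5). It kept 21.6% ± 4.92 (SE), close to the median of the set. Olfr601 ranged from 85.1 to 102 normalised counts in wild-type animals (median 93.7) and from 13.1 to 28.8 in deletion animals (median 19.9), and kept 22.3% ± 3.17 (SE). The wild-type animals agreed closely for this gene, and the deletion animals all lay far below them.

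Olfr586, one of the genes that kept more, ranged from 85.0 to 140.2 normalised counts in wild-type animals (median 109.9) and from 33.7 to 60.7 in deletion animals (median 43.0). Olfr599 ranged from 50.7 to 96.2 (median 77.7) and from 17.4 to 40.4 (median 25.4). The parts that remained were 39.8% ± 4.95 and 34.9% ± 5.36 (SE), and in both genes the groups stood apart. Olfr620 had the most exon bases of the set, 7527 over all its annotated exons merged. It ranged from 122 to 197 normalised counts in wild-type animals (median 151) and from 28.7 to 64.6 in deletion animals (median 35.6). Its remaining part was 26.5% ± 4.24 (SE).

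In several genes deletion animal 3 held a large part of the remaining level. Olfr600 kept 11.8% of its level with that animal and 7.54% without it. For Olfr596 these values were 18.5% and 11.9%, for Olfr624 12.5% and 6.24%, for Olfr630 14.8% and 5.86%, and for Olfr618 8.41% and 4.14%. The log2 fold changes of these genes were between -3.92 and -2.60 with all animals, and all 5 were called lower under each alternative tried. By contrast Olfr610 kept 26.4% and 26.2%.

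The other 7 genes did not pass the filter on low counts. Olfr603 had 94 reads in the wild-type and 11 in the deletion libraries, and its groups did not overlap. Olfr593 had 75 and 10 reads, and Olfr611 had 67 and 31; in both the groups overlapped through deletion animal 3 alone. In a fit without the filter Olfr603 and Olfr593 were called lower, with log2 fold changes of -2.57 ± 0.41 and -2.63 ± 0.48 (SE; limma adjusted p = 0.000257 and 0.00197), and the other 5 were not called. The authors' deposited table calls Olfr603 (adjusted p = 0.000332) and not Olfr593 (0.378).

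Deletion animal 3 supplied most of the few deletion reads in several of them. It held 7 of the 10 reads of Olfr593, of which 16.5% of the wild-type level remained with it and 4.58% without it. Olfr589 had 20 wild-type and 10 deletion reads, 6 of them in that animal (61.7% with it, 24.3% without), and Olfr583 had 16 and 4, with 3 of the 4 there (33.9% with it, 8.71% without). Olfr597 had 39 and 30 reads. Olfr574, the second gene from the deletion, was close to silent, with 1 read in the wild-type and 10 in the deletion libraries, of which 5 were in deletion animal 3.

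Distance from the deletion did not order the losses. Olfr572, which begins 6.40 kb from it, ranged from 20.4 to 38.3 normalised counts in wild-type animals (median 27.6) and from 3.76 to 10.99 in deletion animals (median 6.96), and 25.8% ± 4.68 (SE) remained. Olfr575, the next tested gene, ranged from 45.4 to 98.4 (median 49.6) and from 6.73 to 37.1 (median 11.2), and 26.2% ± 8.80 (SE) remained. Olfr67, at the other end of the stretch, ranged from 112 to 175 normalised counts in wild-type animals (median 142) and from 21.6 to 47.2 in deletion animals (median 33.4), and 23.5% ± 3.12 (SE) remained. The nearest and the farthest gene thus kept similar parts of their RNA, and both were called lower. Across the 40 genes the rank correlation of the log2 fold change with distance was -0.03, and 0.04 once the 2 genes most distant from the median position were left out (Spearman; descriptions over genes of the same libraries).

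In 4 consecutive groups of 10 tested genes the median log2 fold change was -2.58 for Olfr572 to Olfr591, -2.22 for Olfr592 to Olfr607, -1.81 for Olfr608 to Olfr619 and -2.55 for Olfr620 to Olfr67. Called lower in these groups were 10, 9, 8 and 9 genes. By strand the median was -2.07 on the plus strand (16 of 18 called lower) and -2.29 on the minus strand (20 of 22). Rank correlations with exon length (-0.13) and with identity to the most similar receptor gene (-0.14) were also small.

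**Figure D3:**
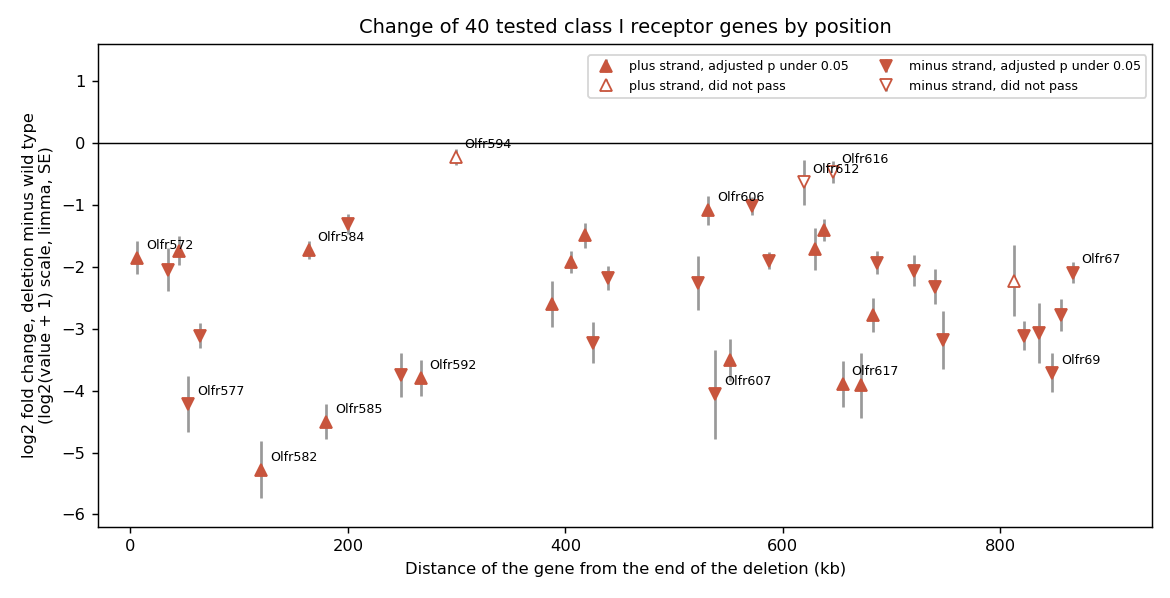
Log2 fold change (deletion over wild type) with its standard error for each tested receptor gene against the distance of the gene from the end of the deletion in kb, with filled triangles for genes called lower and open ones for genes not called, pointing up for the plus and down for the minus strand. The 3 changes nearest to 0, those of Olfr594, Olfr616 and Olfr612, lie between 299 kb and 646 kb, and losses to below 25% of the wild-type level occur on both sides of them.

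Adjacent genes could differ sharply in how much RNA they kept. For each of the 39 pairs of tested neighbours the log2 ratio of the pair in each animal was compared between groups, and 19 pairs differed at an adjusted p under 0.05 (exact permutation test, two-sided, over 924 assignments, Benjamini-Hochberg over 39 pairs). The smallest p this design allows is 0.00216, and 15 of the 19 pairs differed by more than 1 log2 unit. These pairs share genes with one another and were examined after the values were seen. Other receptor genes can lie between the genes of a pair, as Olfr593 does between Olfr592 and Olfr594.

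The pair Olfr616 and Olfr617, 3.92 kb apart, changed its log2 ratio from -1.31 ± 0.30 in wild-type animals to 2.12 ± 1.02 in deletion animals (SD, n = 6 each; exact permutation p = 0.00216, adjusted p = 0.00844). Olfr617 was the higher gene of the pair in all wild-type animals and Olfr616 the higher in deletion animals on average. Olfr592 and Olfr594, 24.0 kb apart, went from 1.35 ± 0.31 to -2.22 ± 0.76 (SD, n = 6 each; exact permutation p = 0.00216, adjusted p = 0.00844). Here too the order of the genes turned over, since Olfr594 kept most of its RNA and Olfr592 little.

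Olfr584, Olfr585 and Olfr586 follow each other along the chromosome. The log2 ratio of Olfr584 to Olfr585 rose by 2.78 and that of Olfr585 to Olfr586 fell by 3.19 in deletion animals (exact permutation p = 0.00216 and adjusted p = 0.00844 for each), because Olfr585 between them kept 3.33% of its level while Olfr584 kept 29.9% and Olfr586 39.8%. By contrast, Olfr591 and Olfr592, 6.46 kb apart, changed together, with a difference of 0.05 in their log2 ratio (exact permutation p = 0.777). Over all 39 pairs the log2 fold change of a gene and of the next gene had a rank correlation of -0.03, a description.

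**Figure D4:**
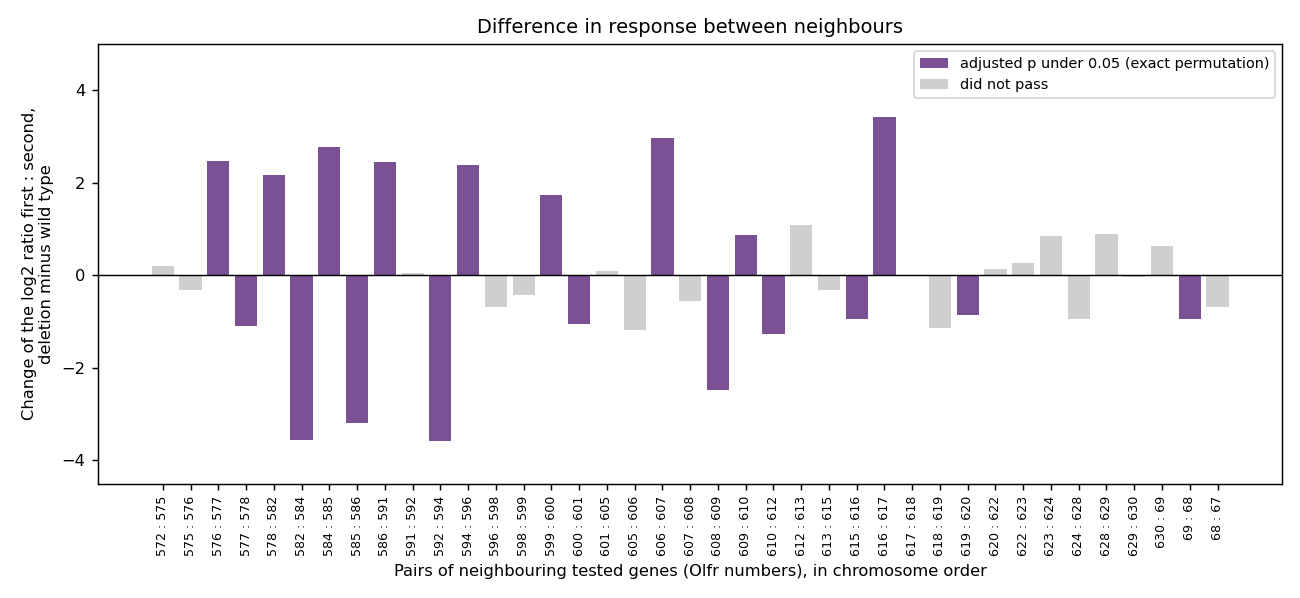
Difference in log2 ratio between deletion and wild-type animals for each of the 39 pairs of tested neighbours, ordered along the chromosome, with pairs past the adjusted threshold of the exact permutation test in purple. The 19 purple bars include differences in both directions, down to -3.57 for Olfr592 and Olfr594 and up to 3.42 for Olfr616 and Olfr617.

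Olfr69, Olfr68 and Olfr67 lie side by side ahead of the beta-globin genes, in this order from the deletion. Olfr69 ranged from 62.8 to 90.8 normalised counts in wild-type animals (median 84.9) and from 1.88 to 13.7 in deletion animals (median 4.54), with a log2 fold change of -3.71 ± 0.32 (SE; limma adjusted p = 5.37e-07). Olfr68 ranged from 65.2 to 125 (median 97.4) and from 7.52 to 30.2 (median 11.6), with a log2 fold change of -2.77 ± 0.26 (SE; limma adjusted p = 1.82e-06). Olfr67 kept more than either, 23.5% against 7.71% for Olfr69 and 14.7% for Olfr68. The change in the ratio of Olfr68 to Olfr67 missed the threshold over the 39 neighbour pairs (exact permutation p = 0.0303, adjusted p = 0.0591).

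Near-identical copies were compared in the same way, since reads that fit both copies could be assigned to either. The pairs Olfr582 with Olfr584 and Olfr69 with Olfr68 are also among the 39 neighbour pairs. Their tests are therefore the same ones, adjusted here over 3 pairs, and over the 39 the adjusted p was 0.00844 and 0.0248. Of the 47 genes 13 had a receptor gene with at least 95% identical coding bases. Olfr582 and Olfr584, the pair whose first coding bases are printed above, had almost the same level in wild-type animals, a log2 ratio of -0.29 ± 0.33 (SD, n = 6), and in deletion animals the ratio was -3.84 ± 1.18 (SD, n = 6; exact permutation p = 0.00216, adjusted over 3 pairs 0.00649). Olfr582 kept 2.48% of its wild-type level and Olfr584 kept 29.9%.

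Olfr69 and Olfr68, with 97.1% identical coding bases, kept 7.71% and 14.7%, and their log2 ratio changed by -0.94 (exact permutation p = 0.0108, adjusted over 3 pairs 0.0162). Olfr243 and Olfr628, with 97.5% identical bases, changed alike within their spread, by -0.26 in log2 ratio (exact permutation p = 0.652). For the pairs Olfr583 and Olfr585, Olfr596 and Olfr603, Olfr597 and Olfr598, and Olfr611 and Olfr612, one copy had too few reads for the test. The sources used here do not say how reads shared by copies were counted, so the levels of single copies are uncertain.

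Genes with little shared sequence gave a similar picture. In 21 genes fewer than 1% of all stretches of 50 bases occurred in another transcript, and of the 20 that were tested 18 were called lower, with a median log2 fold change of -1.97. The gene models of Olfr576 and Olfr577, on opposite strands, overlap by 3.98 kb and those of Olfr615 and Olfr616 by 51 bases. The libraries were strand-specific, but the sources do not say whether counting used the strand, so reads of the overlaps cannot be assigned with certainty. Olfr576 kept 29.4% of its level and Olfr577 kept 6.0%, or 3.82% without deletion animal 3.

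The make-up of the summed RNA shifted with these unequal losses. In wild-type animals the 5 most abundant genes (Olfr592, Olfr615, Olfr591, Olfr623 and Olfr598) gave 26.0% of the summed normalised counts. In deletion animals the 5 most abundant (Olfr609, Olfr615, Olfr594, Olfr598 and Olfr586) gave 36.7%. Olfr594 and Olfr586 are among the genes that kept most, while Olfr592 and Olfr591 left the leading group. Levels per kb of the 40 genes in both groups had a rank correlation of 0.58 (a description). The median coefficient of variation between animals was 19.9% in wild-type and 55.6% in deletion animals, at lower counts.

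The receptor genes took up 3.65% ± 0.52 of all receptor reads in wild-type animals, against 0.833% ± 0.258 in animals with the deletion (SD, n = 6 each), with no overlap. Their share of class I reads outside the deleted interval was 41.2% ± 0.70 in wild-type animals, against 15.8% ± 2.5 in those with the deletion (SD, n = 6 each). In wild-type animals this share varied little, from 40.2% to 42.2%, and the highest deletion value, 20.8%, was that of deletion animal 3. Without that animal the mean was 14.8% ± 0.60 (SD, n = 5), which is still far below every wild-type animal.

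Apart from the genes described here and the 8 pseudogenes numbered among them, 62 class I genes lie at higher coordinates than the deletion. Olfr243, inside the stretch, and Olfr66 are among these 62. Together they held 4887 ± 656 normalised counts per wild-type animal and 4508 ± 578 per deletion animal (SD, n = 6 each), and 92.2% remained. Of their 49 tested genes 15 were lower, Olfr243 and Olfr66 included, and 1 was higher. The median log2 fold change was -0.39, against 36 of 40 lower and -2.24 for the genes described here. Unlike the genes described here, the class I and class II sets used for comparison were not restricted to intact genes. On the other side of the deletion, at lower coordinates, all 3 class I genes were tested and called lower, with a median of -4.84 and 3.63% of their summed level remaining. Class II genes had a median log2 fold change of 0.18, against -0.01 over all genes tested. Limma called 0 of 859 lower and 1 higher. At an unadjusted p under 0.05, 0 were lower and 102 higher. The share of all genes at that unadjusted threshold is not given here, so the 102 cannot be set against a general rate. The edgeR test called 0 lower and 2 higher, and DESeq2 0 and 3. Within the stretch, Olfr243 fell by 2.48 on the log2 scale (SE 0.37; limma adjusted p = 0.000743). Olfr66, on the far side of the beta-globin genes Hbb-bt and Hbb-bs, fell by 3.15 (SE 0.33; limma adjusted p = 6.37e-06). The beta-globin genes between them had log2 fold changes of 0.28 and 0.34 and were not called (limma adjusted p = 0.955 for each).

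**Figure D5:**
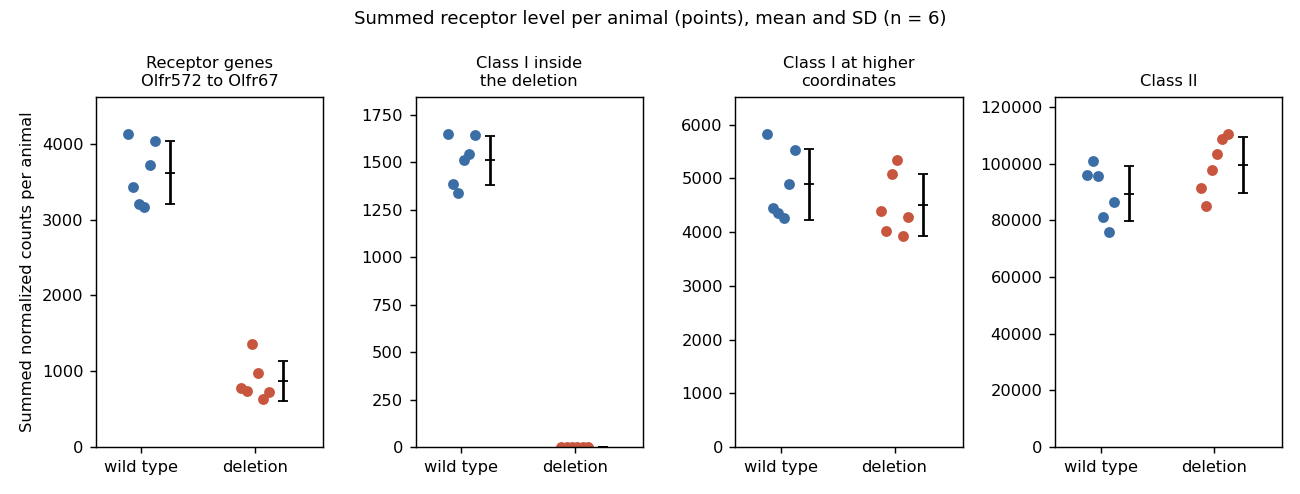
Summed normalised counts per animal, each panel with its own axis from 0. Panels show the receptor genes described here, the class I genes inside the deletion, the 62 at higher coordinates (Olfr243 included) and class II genes. Points are animals and bars the mean and SD of 6 per group. The sums of the genes described here run from 3164 to 4129 in wild-type and from 639 to 1353 in deletion animals, and the highest deletion value is that of deletion animal 3.

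Genes outside the receptor family that govern or accompany receptor expression were not called by limma. Of 24 tested regulators of receptor gene choice 0 were lower and 0 higher, with limma, edgeR and DESeq2 alike, and 1 was higher at an unadjusted p under 0.05; the median log2 fold change was 0.01. They include Lhx2, at 2805 ± 216 and 2917 ± 134 normalised counts, and Ebf1, at 4287 ± 440 and 4381 ± 416 (wild type and deletion; SD, n = 6 each). Of 17 olfactory signal transduction genes 0 were called in either direction by these tools (1 lower and 1 higher at an unadjusted p under 0.05; median -0.05).

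Markers of mature olfactory sensory neurons, the cells that express the receptors, were not called either. The count was 0 of 12 in either direction by limma, edgeR and DESeq2, and 0 at an unadjusted p under 0.05, with a median log2 fold change of -0.06. Omp, the classical marker of these neurons, was at 60163 ± 9286 normalised counts in wild-type animals, against 56675 ± 7738 in those with the deletion (SD, n = 6 each). The markers of immature neurons (8 tested), globose basal and precursor cells (7), horizontal basal cells (4), sustentacular cells (7), Bowman gland (5), red blood cells (5), immune cells (6) and the dorsal and ventral zones (2 each) held 0 genes called by limma, with medians from -0.14 to 0.28. At an unadjusted p under 0.05 limma had 1 gene each in the immature neuron, globose basal, sustentacular and immune lists and 0 in the others, and edgeR and DESeq2 each called 1 immature neuron gene higher. Each listed marker had reads in at least 1 library.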

How the data were processed

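RNA of the olfactory mucosa was sequenced from 6 wild-type and 6 deletion animals, 1 ribodepleted, strand-specific library each, per the labels' protocols. The build was GRCm38.p6 and the tools included STAR 2.6.0 and DESeq2, per the submitters' processing notes; no source names the read counter. The deposited signal values are reads divided by a size factor per library, and 100% of them were whole multiples of the worth of 1 read (tolerance 0.01), so reads were recovered. The same deposited table gives the authors' log2 fold change (wild type over deletion), a score not used here, and their p-values with adjusted p-values; only the calls are printed. The table has 39395 complete rows and 1 incomplete one; the adjusted p-values imply 42312 genes, so 2917 were not analysed here. Positions are from GENCODE M21, matched by identifier for 39296 rows (99.7%).

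The test was limma 3.58.1 (R 4.3.3; trend, robust) on log2(value + 1), with group as the only term, after edgeR 4.0.16's expression filter (minimum count 10) on the recovered reads, which left 17320 genes. Adjusted p-values are Benjamini-Hochberg over all of these, with a threshold of 0.05. Fold changes on the log2(value + 1) scale understate those of low genes. Ratios between genes used exact permutation tests (scipy 1.17.1). Coding identity was computed with edlib 1.3.9 on the longest reading frame of each transcript. DESeq2 1.42.0 and edgeR on the recovered reads, other scalings, filters, pseudocounts, a replicate block and left-out libraries were the alternatives. The planned test assumed raw counts; limma was used since the values are normalised. Tested on simulated counts for this comparison (17320 genes), limma recovered 50 of 50 genes changed to 0.1 of their level and 44 of 50 changed to 0.25. It recovered 37 of 50 changed to 0.5 and 43 of 50 changed to 2 times the level, with 5 false calls. The changed genes were drawn at random from all 17320, so these rates are not those of low-count receptor genes. The raised rates of some deletion libraries in genes with little or no transcription were not simulated.

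The receptor genes and gene lists were chosen with earlier results of these data known. Genes named in full were the 6 with the highest wild-type level per kb, the 6 with the smallest p, the 6 smallest changes among those called, the nearest and farthest genes, and those not called. The last, and Olfr582, Olfr601, Olfr607, Olfr620 and Olfr623, were chosen after their values were seen. Each animal is 1 sample, and 0 libraries were identical to another.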

Additional observations from a re-analysis of the deposited data

Results flagged for a closer look

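There were 82 sets of 6 values, the 40 tested genes and their sum in each group. In 11 of them a library lay far from the other 5 by Dixon's ratio at its 95% critical value. The nominal rate for independent, normally distributed sets is 4.1. It does not apply here, since the sets share the same 12 libraries and many values are near 0. Deletion animal 3 was the high library in 10 of the 11. In normalised counts that animal had 8.24 for Olfr582 (the others 0 to 2.24), 5.49 for Olfr585 (0.843 to 2.05), 37.1 for Olfr592 (7.52 to 15.7), 28.8 for Olfr596 (3.37 to 10.3) and 37.1 for Olfr600 (6.15 to 10.6). It had 38.5 for Olfr607 (the others 0 to 6.58), 33.0 for Olfr613 (3.37 to 12.3), 12.4 for Olfr624 (0 to 4.49), 15.1 for Olfr630 (0 to 3.08) and 30.2 for Olfr68 (7.52 to 12.3). Wild-type animal 1 had 145 for Olfr578, where the other wild-type animals had 89.1 to 108. The part of the high share of detected genes in deletion animal 3 (94.6%) in these values was not tested.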

How the results depend on the processing

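Over all alternatives 33 to 38 receptor genes were called lower and 0 higher, 21.3% to 25.2% of the wild-type sum remained, and 19 to 22 neighbour pairs and 2 near-identical pairs passed. Of the values of single genes, 924 kept their side of the threshold, 31 lost the call (Olfr605, Olfr606, Olfr607 and Olfr613) and 2 gained it (Olfr628). The number of class II genes called higher, 1 with limma, was 2 with edgeR under either scaling, 3 with DESeq2, 0 with the replicate block, 9 without deletion animals 2 and 3 and 0 to 6 with 1 animal left out. All genes called higher, 9 with limma, numbered 15 with DESeq2, 16 without the filter, 5 with the block, 23 without deletion animals 2 and 3 and 6 to 17 with 1 animal left out, the last without deletion animal 2. Other class I genes called higher numbered 2 without the filter and 1 to 2 with 1 animal left out. On the TMM CPM scale the sums were 244 ± 27.9 and 58.3 ± 17.4 (SD, n = 6 each), a change of unit. The cause of the other changes was not tested. Scaling by class II genes moved the median of all genes to -0.17 and that of the receptor genes to -2.39. Sizes of change depended on the scale and the pseudocount. The median log2 fold change of the receptor genes was -1.56 on the TMM CPM scale, -1.96 with a pseudocount of 5 and -2.46 with a pseudocount of 0.5. For Olfr582 the log2 fold change ran from -6.01 to -2.45 over all alternatives. The replicate block called 35 receptor genes lower. Replicate numbers do not pair the animals: same-numbered animals correlated at -0.24 to -0.01, and 0 of 6 correlated best with their own number. Depth limits the 7 genes under the filter, which had 94 reads or fewer in all wild-type libraries together; without the filter 2 of them, Olfr603 and Olfr593, were called lower.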

Other observations

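The 8 class I pseudogenes that lie among the receptor genes by number had a summed level of 79.6 ± 10.1 normalised counts in wild-type animals, against 34.9 ± 10.4 in those with the deletion (SD, n = 6 each), so 43.8% remained, and 1 of the 2 tested was called lower by limma. The number of the 47 intact genes with any read was 45 to 47 in wild-type and 39 to 47 in deletion libraries.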
